A study of Mus musculus with 12 samples.

Results

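The SR splicing factors are the serine/arginine-rich proteins encoded by the Srsf genes, and 10 of them were followed here: Srsf1, Srsf2, Srsf3, Srsf4, Srsf5, Srsf6, Srsf7, Srsf9, Srsf10 and Srsf11. They were taken by gene symbol from a table of 55487 mouse genes, in which each symbol stood 1 time. All 10 were among the 15968 genes that reached 1 TPM in 2 or more libraries, which were the genes tested. TPM is a length-corrected share of all transcripts of a library, on a scale common to all libraries, so levels can be set side by side between genes, whereas the sequencing depth behind a value is unknown.

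The libraries came from 3T3-L1, murine fibroblasts that become fat cells when the confluent culture is given an induction medium with IBMX, dexamethasone and insulin (MDI). The cells had been infected with lentivirus for a short hairpin RNA, either a scrambled control (shScram) or a hairpin against the m6A demethylase gene Fto (shFto), and selected with puromycin, so that control cells also carry a vector, a red fluorescent protein and a resistance gene. More than 1 hairpin against Fto was made, and which of them the sequenced cells carried is not given in the sources used here. Each line was collected as growth-arrested preadipocytes (Pre), at the stage of mitotic clonal expansion (MCE), when the induced cells divide again, and at the differentiation stage (Diff), which makes 6 groups of 2 libraries and 12 libraries in all. The collection days are given for rhein-treated cells, which were not analysed here, and not for these lines. The paper describes fragmented total RNA and a narrow size range for libraries of rhein-treated cells. Whether these lines were prepared in the same way is not given. Nothing states that the 2 replicates of a group came from separate cultures, so the p-values measure the spread between these libraries, which may be technical. In such bulk samples, fewer cells of a type and less RNA per cell cannot be told apart.

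SR proteins carry an RNA recognition motif and a tail rich in arginine-serine repeats. They bind enhancer sequences in exons, bring the U1 snRNP and U2AF to the neighbouring splice sites and so help to decide which exons are kept. SRPK kinases in the cytoplasm and CLK kinases in the nucleus phosphorylate the tail, and the transportin Tnpo3 carries the phosphorylated proteins into the nucleus. Many SR genes hold a poison exon or an intron whose inclusion brings a premature stop codon and nonsense-mediated decay of the transcript, by which SR proteins limit their own level. In adipogenesis the family is known for a link to Fto: removal of m6A near splice sites is held to reduce the binding of SRSF2 at exons of Runx1t1, a regulator of adipogenesis with a short and a long isoform. Values per gene, as used here, do not tell transcript isoforms apart, so neither the isoforms of Runx1t1 nor the poison exons of the SR genes were measured.

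In GENCODE M21, an annotation on GRCm38, the 10 genes have 85 transcripts, of which 29 are protein coding, 15 are marked for nonsense-mediated decay and 26 as retained introns. All members but Srsf10 have at least 1 transcript of the decay class, and all but Srsf9 and Srsf10 have a retained intron. Srsf11 has the largest number of retained-intron transcripts, 11 of its 19. TPM of a gene sums over such transcripts, coding or not. Srsf2 lies with its whole length of 3194 bases opposite Mettl23 and shares 655 bases with Mfsd11, so its value is uncertain, since the use of strand in counting is not given in the sources used here. The means of Mettl23 and Mfsd11 over all libraries were 22.9 and 38.0 TPM, against 255 TPM for Srsf2. Srsf1, Srsf4 and Srsf11 overlap noncoding genes of 3.29 TPM or less, and Srsf3 shares sequence with the processed copy Srsf3-ps, which held 1.95 to 8.92 TPM.

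The promoters of 4 members are shown because the transcripts of Srsf5 and Srsf11, and those of Srsf3 and Srsf7, followed each other most closely over the libraries, a choice made after the values were seen. The sequences are from RefSeq on GRCm38.p6, 5′ to 3′ on the strand of the gene, from 250 bases before the start of transcription to 50 after it. Capitals mark any match on either strand to the CCAAT box, to the core of ETS factor sites with the letters CCGGAA, to the GC box with the letters GGGCGG, to the E-box spelled CACGTG, to the cAMP response element spelled TGACGTCA or to the TATA box spelled TATAAA, and matches can overlap.
Srsf5, chr12:80945249-80945548, plus strand: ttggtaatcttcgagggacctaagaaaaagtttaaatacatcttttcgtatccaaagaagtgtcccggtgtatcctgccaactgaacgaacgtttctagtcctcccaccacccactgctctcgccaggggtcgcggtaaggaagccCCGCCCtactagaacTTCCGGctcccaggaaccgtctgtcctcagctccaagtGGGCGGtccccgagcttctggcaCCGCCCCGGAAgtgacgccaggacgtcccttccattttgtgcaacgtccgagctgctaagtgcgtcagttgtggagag
Srsf11, chr3:158036557-158036856, minus strand: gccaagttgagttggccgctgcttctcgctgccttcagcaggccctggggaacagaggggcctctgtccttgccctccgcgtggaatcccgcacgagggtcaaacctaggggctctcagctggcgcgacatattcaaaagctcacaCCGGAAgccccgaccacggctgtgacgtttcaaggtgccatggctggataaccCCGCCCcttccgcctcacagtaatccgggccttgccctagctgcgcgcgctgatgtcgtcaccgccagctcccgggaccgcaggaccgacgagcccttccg
Srsf3, chr17:29032410-29032709, plus strand: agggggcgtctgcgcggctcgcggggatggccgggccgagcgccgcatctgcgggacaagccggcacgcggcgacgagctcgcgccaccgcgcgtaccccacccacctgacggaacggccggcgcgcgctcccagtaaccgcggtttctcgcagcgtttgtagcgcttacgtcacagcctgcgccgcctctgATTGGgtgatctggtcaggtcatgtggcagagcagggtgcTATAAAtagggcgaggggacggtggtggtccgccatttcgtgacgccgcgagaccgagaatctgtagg
Srsf7, chr17:80207256-80207555, minus strand: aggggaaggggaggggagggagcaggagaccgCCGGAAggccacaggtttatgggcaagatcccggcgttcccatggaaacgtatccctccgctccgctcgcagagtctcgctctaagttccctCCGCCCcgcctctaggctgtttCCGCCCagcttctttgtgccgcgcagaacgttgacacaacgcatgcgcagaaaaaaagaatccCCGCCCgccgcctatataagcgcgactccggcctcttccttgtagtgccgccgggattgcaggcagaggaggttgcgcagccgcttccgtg

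All 10 members had an entry among the 32851 RefSeq promoters of this length. A GC box stood in 9 of the 10, against 35.7% of all promoters, and an ETS core in 6, against 14.9%. A CCAAT box was found in 4, against 37.4%, and the TATA box in 2, Srsf2 and Srsf3, against 13.6%. No member held the E-box or the cAMP response element, which occur in 7.15% and 1.79% of promoters. Srsf5 held 2 ETS cores and 3 GC boxes, one core overlapping a GC box just before the start, while Srsf11 held 1 of each. Srsf3 differed from the 9 others in having no GC box. These matches describe the letters only.

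Replicate 1 of shScram preadipocytes stood apart from replicate 2. The correlation across genes between the replicates was 0.939 in that group and 0.990 to 0.993 in the other 5. The difference of replicate 1 from replicate 2 followed the GC content of the genes (Spearman rho -0.688 across 15928 genes, against -0.204 to 0.356 elsewhere). Both values compare the 2 replicates with each other and do not tell which of them is unusual. Since all libraries share 1 estimate of the spread, this pair widens the error of comparisons between the other groups. In comparisons with shScram preadipocytes the shared estimate can instead be narrower than the spread of the pair. For Srsf10 the 2 replicates differed by 0.76 on the log2 scale, against a standard error of 0.22 for its knockdown effect in preadipocytes. Counts for such comparisons from their own libraries alone are given below. Most results of the members are given with and without replicate 1. Without it shScram preadipocytes have 1 library and add nothing to the estimate of the spread. Adjusted p-values and counts of that fit thus leave out the variation of this group, and comparisons with it rest on 1 control library. The same limit holds for any group from which a library is left out. Replicate 1 of shScram at the differentiation stage has shScram in its title but the knockdown under treatment, and was grouped by its title. Fto was at 52.7 to 73.5 TPM in the 6 shScram libraries, that replicate included at 73.5 TPM, and at 5.51 to 7.47 TPM in the 6 shFto libraries. Of the marker lists, the 7 adipocyte genes summed to 1484 and 1471 TPM in differentiated shScram cells and to 433 and 396 TPM in differentiated shFto cells. By limma at an adjusted p under 0.05, 6 of them were lower with the knockdown and 0 higher. Of all genes tested 9.31% were lower and 11.9% higher at this stage. The 8 genes of dividing cells summed to 912 and 850 TPM in the MCE libraries of shScram and to 783 and 737 TPM in those of shFto. At the differentiation stage they reached 180.5 and 170.1 TPM in shScram against 311 and 343 TPM in shFto. There 7 were called higher and 0 lower, beside 11.9% and 9.31% of all genes. The defining markers of blood, endothelial and epithelial cells summed to 3.04, 0.651 and 0.988 TPM at most, the 6 fibroblast genes to 4758 TPM or more.

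SR transcripts were abundant in every group. Single members ranged from 40.3 TPM (Srsf4) to 585 TPM (Srsf5), and by mean TPM they stood between the 78.2 percentile (Srsf4) and the 97.8 percentile (Srsf5) of the tested genes. Together the 10 genes held 2105 ± 184 TPM in shScram preadipocytes (SD, n = 2, as for the other sums), 1548 ± 41.0 TPM during clonal expansion and 1917 ± 64.5 TPM after differentiation. In shFto cells the sums were 1539 ± 138, 1521 ± 60.5 and 1828 ± 28.0 TPM at the same stages. The family thus stood lowest at the MCE stage in the control line, and the lines differed most in preadipocytes, where the 2 libraries of neither line overlapped those of the other.

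The order of the members within the family differed between groups. Srsf5 was the most abundant member in every group except shFto at the MCE stage, where Srsf2, Srsf3 and Srsf9 stood above it. Its share of the family transcripts was 23.9%, 19.5% and 23.2% in shScram at the successive stages and 19.0%, 11.9% and 24.8% in shFto. Srsf11 was second except at the MCE stage, where 4 members stood above it in shScram and 7 in shFto, with a share of 9.03% and 7.59%, against 13.8% to 19.8% in the other 4 groups. Srsf7 held 10.7% at the MCE stage of shFto and 4.65% to 7.47% elsewhere. Srsf4 was the least abundant member in all 6 groups.

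**Figure D1:**
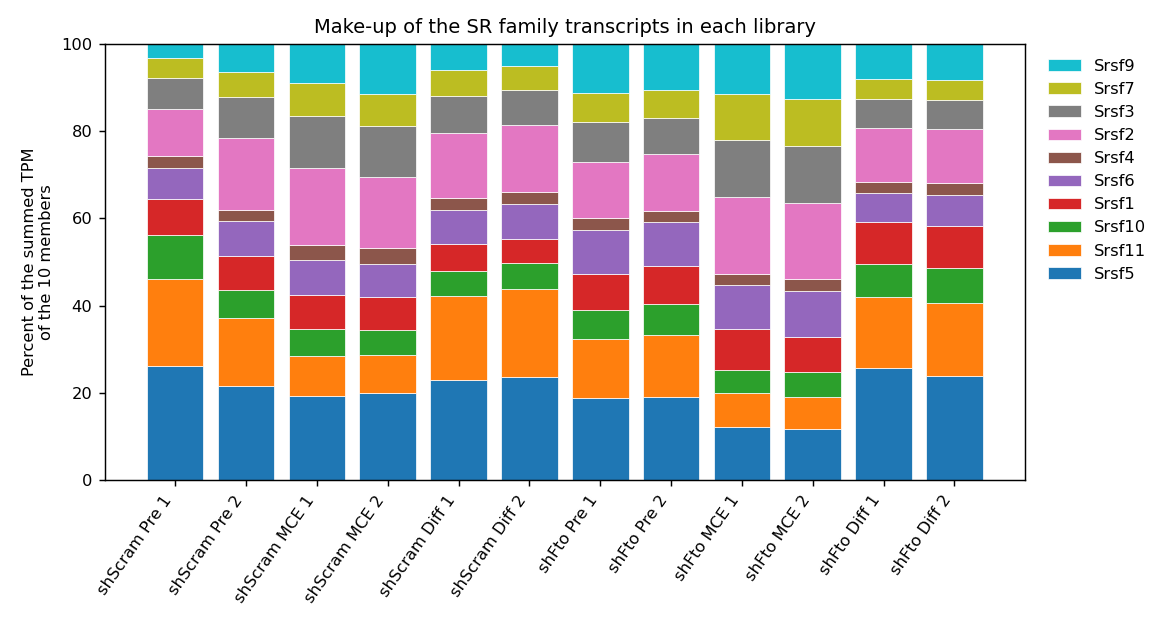
Stacked bars of the percent of the summed TPM of the 10 SR factors that each gene contributed, 1 bar for each of the 12 libraries. The segment of Srsf11 is shortest in the 4 MCE libraries and that of Srsf5 in the 2 MCE libraries of shFto, with 11.9% for Srsf5 and 7.59% for Srsf11 in the mean of shFto MCE.

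**Figure D2:**
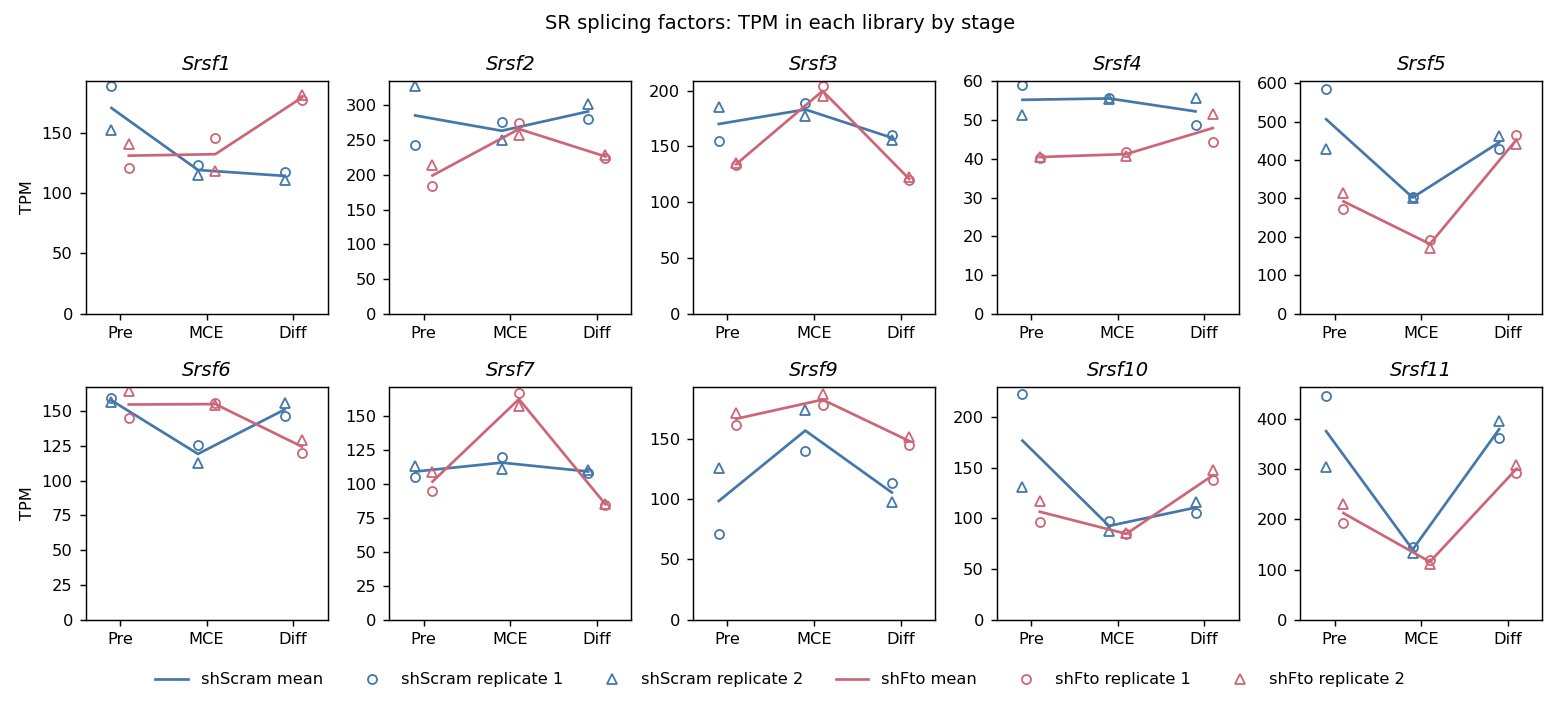
TPM of each SR factor (y axis from 0, a scale for each gene) by stage (x axis), with circles and triangles for replicates 1 and 2, blue for shScram, red for shFto and lines through the group means. Srsf11 dips at the MCE stage in both lines, and Srsf3 and Srsf7 peak there in shFto. The replicates of shScram preadipocytes lie furthest apart for Srsf2, Srsf5, Srsf9, Srsf10 and Srsf11.

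The first comparison asks how the SR factors change along differentiation in control cells. From preadipocytes to the MCE stage, 1 member rose and 5 fell by limma on log2(TPM + 1) with Benjamini-Hochberg adjustment, called at an adjusted p under 0.05. Of all genes tested 12.2% rose and 26.9% fell. When replicate 1 of shScram preadipocytes was left out, 0 rose and 6 fell, beside 12.9% and 35.3% of all genes. The median log2 fold change was -0.25 for the members and -0.17 for all genes. From the MCE to the differentiation stage 2 members rose and 0 fell, where 20.0% and 5.22% of all genes did, with medians of 0.04 and 0.23. In this fit 4 members had an unadjusted p under 0.05, and without the library 4 rose and 2 fell, beside 38.3% and 13.7%.

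In shFto cells, 2 members rose and 2 fell from preadipocytes to the MCE stage, beside 8.80% and 19.9% of all genes, with medians of 0.02 and -0.18. From there to the differentiation stage 3 rose and 2 fell, beside 20.2% and 6.48%, with medians of -0.01 and 0.17. Without the library that stood apart the counts were 3 and 3, beside 15.8% and 35.3% of all genes, then 4 and 5, beside 34.6% and 16.4%. Since the median of all genes is not at 0 between stages, scaling by the median ratio of genes shifts these values. With it 3 members rose and 1 fell into the MCE stage in each line, beside 20.1% and 17.7% of all genes in shScram and 14.2% and 14.1% in shFto. After it 1 rose and 3 fell in shScram, beside 11.7% and 11.1%, and 2 rose and 4 fell in shFto, beside 15.4% and 12.7%.

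Srsf11 and Srsf5 fell into the MCE stage and rose after it. Srsf11, a cofactor of U1 snRNP and U2AF at splice sites (chr3:158010473-158036639, minus strand), was at 446 and 304 TPM in shScram preadipocytes, fell to 146 and 134 TPM in the MCE libraries and stood at 363 and 396 TPM in the differentiated ones. In shFto the libraries held 193 and 231, then 119.7 and 111, then 293 and 308 TPM. Both MCE libraries lay below all libraries of the other stages in either line. The fall was -1.39 on the log2 scale in shScram (standard error 0.18, adjusted p = 0.000512) and -0.87 in shFto (standard error 0.18, adjusted p = 0.00665). The rise after it was 1.43 (adjusted p = 0.000914) and 1.37 (adjusted p = 0.000907). Each of the 4 values kept its direction over all alternatives, the fall in shScram at -1.67 to -1.02. Without replicate 1 of shScram preadipocytes, which leaves 1 library in that group, the fall in shScram was -1.12. The fall in shFto lost its call without replicate 2 of shFto preadipocytes or of shFto at the MCE stage, with an adjusted p of up to 0.0617. With the libraries of the contrast alone, the adjusted p of the fall in shScram was 0.0766.

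Srsf5, a splicing enhancer protein known as a fast-responding gene in growing cells (chr12:80945504-80950507, plus strand), was at 585 and 427, then 303 and 301, then 428 and 464 TPM in shScram. In shFto it was at 271 and 313, then 191 and 171, then 464 and 441 TPM. The MCE libraries were the lowest of their line. Srsf5 fell by 0.72 in shScram (adjusted p = 0.00786) and by 0.68 in shFto (adjusted p = 0.012), then rose by 0.56 (adjusted p = 0.0336) and by 1.32 (standard error 0.16, adjusted p = 0.000628), a step from 181 ± 14.2 to 453 ± 16.4 TPM in shFto (SD, n = 2 each). The shScram values depend on the processing: with the GC trend removed, a setting added after the data were seen, they were -0.13 (adjusted p = 0.242) and 0.18 (adjusted p = 0.141). Of the 9 alternatives that leave out no single library, the fall passed in 6 in shScram and in 7 in shFto. The rise in shScram passed in 5 of them. With median-ratio scaling neither the falls nor the shScram rise passed. With 1 library left out the rise in shScram passed in 4 of 12 fits (adjusted p up to 0.174) and the fall in shFto in 10 (adjusted p up to 0.0963), not without replicate 2 of shFto preadipocytes or of shFto at the MCE stage. The shFto rise stayed at 1.00 to 1.40 over all alternatives, each with an adjusted p under 0.05.

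Srsf3 and Srsf7 ran the other way in shFto cells. Srsf3, the smallest SR protein, which also couples splicing to export of mRNA (chr17:29032628-29043373, plus strand), was at 133 and 135 TPM in shFto preadipocytes, 204 and 195 TPM in the MCE libraries and 119.6 and 122 TPM in the differentiated ones. Srsf7, which contains a zinc knuckle beside its RNA recognition motif and takes part in export as well (chr17:80200080-80207307, minus strand), was at 94.9 and 108, then 167 and 158, then 84.5 and 85.4 TPM. For both genes the MCE libraries lay above the others with no overlap. Srsf3 rose by 0.57 (adjusted p = 0.00583) and fell by 0.72 (adjusted p = 0.00238), Srsf7 rose by 0.67 (adjusted p = 0.0021) and fell by 0.93 (adjusted p = 0.000591). Srsf7 passed under every alternative in both steps, and Srsf3 did so except for its rise without replicate 1 of shFto at the MCE stage, where the adjusted p was 0.0552. The dividing-cell markers summed to 281 and 297 TPM in shFto preadipocytes and to 346 and 328 TPM in those of shScram, so they were highest at the MCE stage in both lines, and their part in the changes of Srsf3 and Srsf7 was not tested.

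In shScram the same genes moved little. Srsf3 was at 155 and 185, then 189 and 177, then 160.3 and 155 TPM, and its changes of 0.11 (adjusted p = 0.472) and -0.21 (adjusted p = 0.21) did not pass. Srsf7 was at 105 and 113, then 120.0 and 111, then 108 and 109.9 TPM, with changes of 0.08 (adjusted p = 0.575) and -0.08 (adjusted p = 0.635). After median-ratio scaling the rise and the fall passed for both genes in shScram too, at 0.34 and -0.49 for Srsf3 and at 0.31 and -0.35 for Srsf7. They also passed with the GC trend removed, at 0.67 and -0.57 for Srsf3 and at 0.62 and -0.42 for Srsf7, while the other 7 alternatives that leave out no single library gave no call for either gene.

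Of the other members, Srsf1, the founding SR protein and a known oncogene (chr11:88047373-88053755, plus strand), was at 189 and 152 TPM in shScram preadipocytes and at 123 and 115 TPM at the MCE stage, a fall of 0.51 on the log2 scale (adjusted p = 0.0274). Srsf6 (chr2:162931528-162937121, plus strand) fell by 0.40 in the same step, from 159 and 156 to 126 and 113 TPM (adjusted p = 0.0222). Srsf10 (chr4:135855747-135869908, plus strand), which acts as a repressor when dephosphorylated during mitosis and heat shock, fell by 0.88, from 223 and 131 to 97.5 and 87.8 TPM (adjusted p = 0.0134). Srsf9 (chr5:115327177-115333080, plus strand) rose by 0.71, from 71.2 and 126 to 139.8 and 173 TPM (adjusted p = 0.0384). For Srsf9 and Srsf10 the replicates of shScram preadipocytes differed by a factor of 0.567 and 1.70 (replicate 1 over replicate 2). Without replicate 1, which leaves 1 library in that group, the change of Srsf9 was 0.31 and that of Srsf10 -0.50. Of the 12 fits that leave out 1 library, Srsf9 passed in 1 (adjusted p up to 0.207), Srsf1 in 10, and Srsf6 and Srsf10 in 11 each. Replicate 2 of shScram at the MCE stage ended the calls of Srsf1, Srsf6 and Srsf10, and replicate 1 that of Srsf1. With the GC trend removed Srsf1 and Srsf6 had the opposite sign, at 0.07 and 0.08. Of the 9 alternatives that leave out no single library, Srsf1 passed in 5, Srsf6 in 6, and Srsf9 and Srsf10 in 7 each. The adjusted p of Srsf10 reached 0.187 among them. With median-ratio scaling the falls of Srsf1, Srsf6 and Srsf10 all lost their call. In shFto Srsf10 rose by 0.74 after the MCE stage, from 84.4 and 85.2 to 138 and 147 TPM (adjusted p = 0.0357), which passed in 4 of the 12 fits with 1 library left out (adjusted p up to 0.161).

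**Figure D3:**
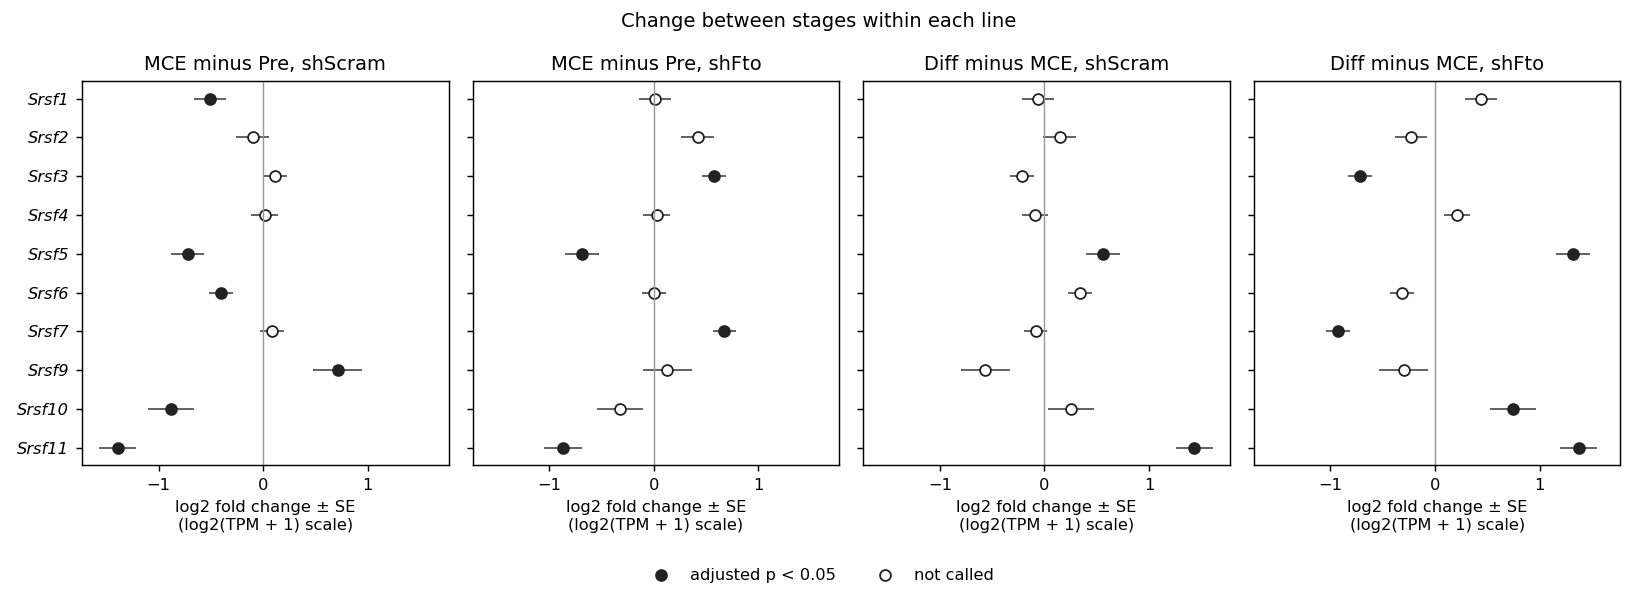
Log2 fold change between stages (x axis, log2(TPM + 1) scale) for each SR factor (y axis) within each line, with bars for 1 standard error and filled points for an adjusted p under 0.05 by limma. Srsf11 is at -1.39 and -0.87 into the MCE stage and at 1.43 and 1.37 after it, while Srsf3 and Srsf7 are filled in the shFto panels only, on the TPM scale.

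The second comparison asks which SR factors differ between shFto and shScram cells at a given stage. In preadipocytes 1 member was higher and 5 were lower in shFto, where 15.9% of all genes were higher and 12.3% lower, with medians of -0.40 for the members and 0.08 for all genes. At the MCE stage 1 was higher and 2 were lower, beside 10.5% and 7.26%, with medians of 0.07 and 0.05. At the differentiation stage 1 was higher and 1 lower, beside 11.9% and 9.31%, with medians of -0.20 and 0.03. The counts without replicate 1 of shScram preadipocytes were 1 and 5, beside 16.1% and 12.9% of all genes, then 2 and 3, beside 25.2% and 15.8%, then 3 higher and 5 lower, beside 25.3% and 20.4%. Leaving out any library compared at the MCE or the differentiation stage left 0 members called at that stage, beside 7.61% to 8.97% and 10.3% to 11.2% of all genes. Without replicate 2 of shScram preadipocytes 8, 5 and 8 members passed at the successive stages, beside 62.8%, 41.0% and 45.6% of all genes, and without replicate 1 of shFto preadipocytes 0 passed in preadipocytes, beside 7.32%.

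At the differentiation stage Srsf1 rose with the knockdown. Its control libraries held 118 and 111 TPM, its shFto libraries 177 and 181 TPM, with no overlap, which is 114 ± 4.83 against 179 ± 2.99 TPM (SD, n = 2 each). The log2 fold change was 0.65 (standard error 0.15, adjusted p = 0.0163) and 0.57 to 0.72 over all alternatives. The call was lost when any 1 of the libraries compared was left out. With all 12 libraries Srsf1 was the only member called higher at this stage, although its level in shFto preadipocytes had been 121 and 141 TPM against 189 and 152 TPM in shScram (log2 fold change -0.37, adjusted p = 0.0904). The markers of dividing cells were higher and those of adipocytes lower in the same shFto libraries, whose part in the change of Srsf1 was not tested.

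Srsf3 fell at this stage, from 160.3 and 155 TPM in shScram to 119.6 and 122 TPM in shFto (log2 fold change -0.38, standard error 0.12, adjusted p = 0.0454). The pairs did not overlap, yet the call was lost without any library other than those of shScram preadipocytes, with an adjusted p of up to 0.189, and with the GC trend removed (-0.32, adjusted p = 0.212). Srsf7 stood at 108 and 109.9 against 84.5 and 85.4 TPM, just short of the threshold (-0.36, adjusted p = 0.0513). Srsf2, the SR protein tied to m6A at exons of Runx1t1 (chr11:116849901-116853094, minus strand), was at 224 and 229 TPM, against 281 and 302 TPM in the control line, a difference of -0.36 that did not pass (adjusted p = 0.14). With replicate 1 of shScram preadipocytes left out, the differences of Srsf2 (adjusted p = 0.00625), Srsf7 (0.00363), Srsf6 (-0.28, adjusted p = 0.02) and Srsf11 (-0.33, adjusted p = 0.0143) passed as lower, and those of Srsf9 (0.49, adjusted p = 0.00357) and Srsf10 (0.36, adjusted p = 0.0122) as higher.

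At the MCE stage Srsf5 was lower and Srsf7 higher in shFto. Srsf5 was at 191 and 171 TPM against 303 and 301 TPM, 60.0% of the control mean (log2 fold change -0.74, standard error 0.16, adjusted p = 0.0134). Srsf7 was at 167 and 158 TPM against 120.0 and 111 TPM, 140% of the control mean (0.49, standard error 0.11, adjusted p = 0.0171). Neither pair overlapped, and both differences passed under the 9 alternatives other than leaving out a library. Both calls were lost when any 1 of the libraries compared was left out. Srsf4, the longest SR protein of the classical set (chr4:131873617-131901706, plus strand), was lower at 41.8 and 40.6 TPM against 55.7 and 55.4 TPM (-0.42, adjusted p = 0.0493), a call that 2 of the 12 fits with 1 library left out retained. Srsf6 was at 156 and 154 TPM against 126 and 113 TPM, with no overlap and an adjusted p of 0.0513 (0.38). With that library of shScram preadipocytes left out Srsf6 (adjusted p = 0.00449) and Srsf11 (-0.27, adjusted p = 0.038) passed as well.

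In preadipocytes Srsf11 and Srsf5 had the largest falls of the members. Srsf11 was at 193 and 231 TPM in shFto, 56.6% of the control mean (log2 fold change -0.80, adjusted p = 0.0147), and Srsf5 at 271 and 313 TPM, 57.8% of the control mean (-0.78, adjusted p = 0.0108). Srsf2 was at 184 and 214 TPM against 243 and 328 TPM (-0.51, adjusted p = 0.0414), and Srsf4 at 40.3 and 40.6 TPM against 59.1 and 51.3 TPM (-0.44, adjusted p = 0.0341). Srsf10 was at 96.3 and 117 TPM against 223 and 131 TPM (-0.68, adjusted p = 0.0476), and Srsf9 was higher, at 162 and 171 TPM against 71.2 and 126 TPM (0.81, adjusted p = 0.0341). All 6 pairs of groups lay apart, but the control values rest on replicates that differ from each other. Without replicate 1, which leaves 1 control library, the differences were -0.52 for Srsf11, -0.55 for Srsf5, -0.72 for Srsf2 and -0.34 for Srsf4. They were 0.40 for Srsf9, -0.30 for Srsf10 and -0.46 for Srsf3. Srsf11 and Srsf5 lost their call without replicate 1 of shFto preadipocytes. Of the 12 fits that each leave out 1 library, Srsf2 passed in 2, Srsf4 in 6, Srsf9 in 4 and Srsf10 in 1, with adjusted p-values of up to 0.21, 0.142, 0.131 and 0.226. With only the 4 libraries of this contrast 0 members and 0 of all genes passed.

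**Figure D4:**
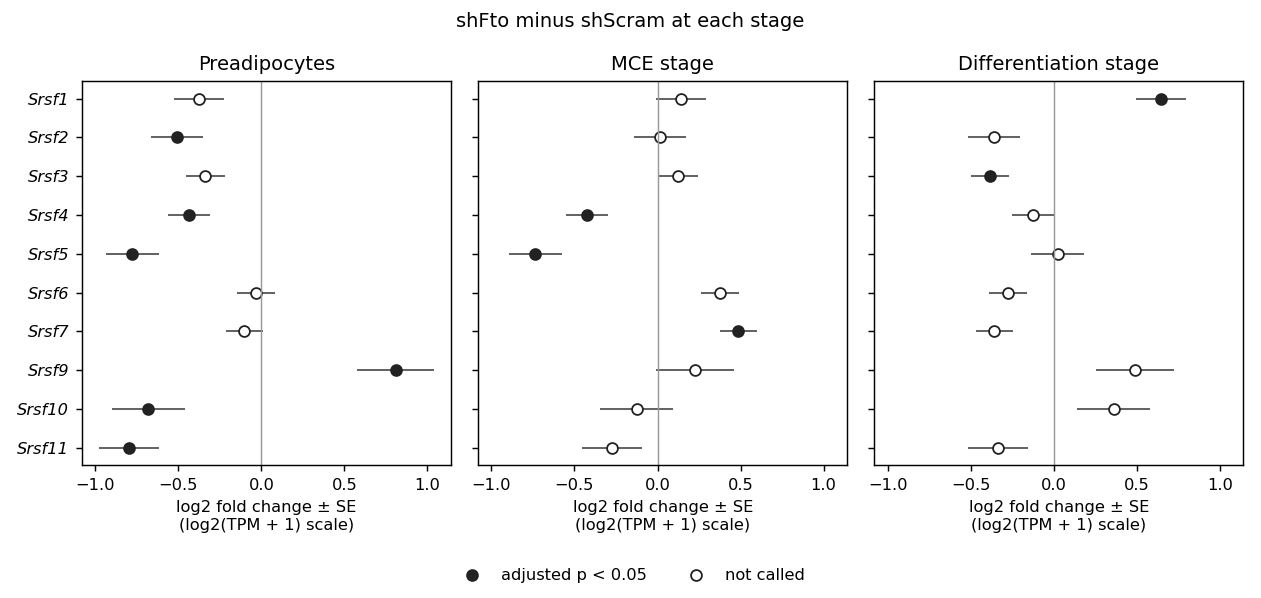
Log2 fold change of shFto over shScram (x axis, log2(TPM + 1) scale) for each SR factor (y axis) at the 3 stages, with bars for 1 standard error and filled points for an adjusted p under 0.05 by limma. Most points lie left of 0 in preadipocytes, Srsf5 (-0.74) and Srsf7 (0.49) are on opposite sides at the MCE stage, and Srsf1 (0.65) stands to the right at the differentiation stage.

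**Figure D5:**
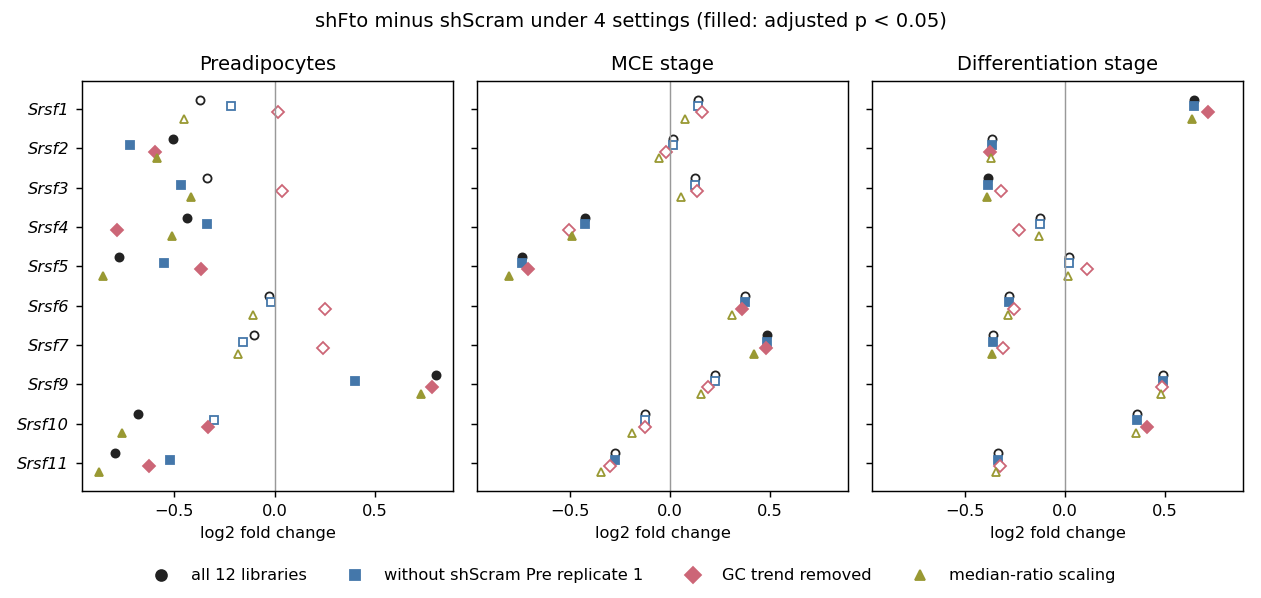
The same differences (x axis, log2 fold change) under 4 settings, marked by shape and colour, with filled symbols for an adjusted p under 0.05. In preadipocytes the settings spread widely, Srsf9 from 0.40 to 0.81 and Srsf5 from -0.85 to -0.37, whereas Srsf1 stays between 0.64 and 0.72 at the differentiation stage.

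The third comparison asks whether the effect of the knockdown differs between stages. Between preadipocytes and the MCE stage no member passed by limma (0 of 10, beside 5.11% of all genes in either direction), 5 had an unadjusted p under 0.05, and the lowest adjusted p was that of Srsf7 (0.59, adjusted p = 0.0699). When replicate 1 of shScram preadipocytes was left out, which leaves 1 library in that group, the changes were 0.74 for Srsf2, 0.59 for Srsf3 and 0.64 for Srsf7. Between the MCE and the differentiation stage 1 member passed, beside 2.49% of all genes. This was Srsf7, whose difference between the lines went from 0.49 to -0.36, a change of -0.84 (standard error 0.16, adjusted p = 0.0288). The call was lost without any of the 8 libraries of these stages, with an adjusted p of up to 0.158. Without replicate 1 of shScram preadipocytes, 6 passed, beside 17.1% of all genes: Srsf7 (adjusted p = 0.000849), Srsf5 (0.76, adjusted p = 0.00266), Srsf3 (-0.51, adjusted p = 0.00396), Srsf6 (-0.66, adjusted p = 0.00491), Srsf10 (0.49, adjusted p = 0.0376) and Srsf1 (0.50, adjusted p = 0.0425).

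The order of levels over the 6 groups differed between members. Srsf11 ranged most widely, with a highest group mean 3.29 times the lowest, followed by Srsf5 (2.79 times) and Srsf10 (2.08 times), and Srsf6 ranged least (1.32 times). For Srsf1 the order was differentiated shFto, shScram preadipocytes, shFto MCE, shFto preadipocytes, shScram MCE and differentiated shScram, and 4 of the 5 neighbouring pairs overlapped. For Srsf7, shFto MCE stood above shScram MCE and differentiated shFto below shFto preadipocytes without overlap, while differentiated shScram, shScram preadipocytes and shFto preadipocytes overlapped in turn. For Srsf11 the shFto MCE libraries lay below those of shScram MCE, which lay below shFto preadipocytes, and the 3 highest groups overlapped in turn. Apart from shScram preadipocytes, where the coefficient of variation of a pair reached 39.1%, replicates of a member differed by a coefficient of variation of 0.378% to 15.1%.

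Over the 12 libraries, which share group and GC trends, Srsf5 and Srsf11 had the most similar profiles (Pearson r 0.928 on log2(TPM + 1)), followed by Srsf3 and Srsf7 (0.88). Srsf10 was most like Srsf5 (0.831), Srsf1 most like Srsf10 (0.78), Srsf2 most like Srsf3 (0.678) and Srsf4 most like Srsf5 (0.644). Srsf6 and Srsf9 were each most like Srsf7, at 0.401 and 0.291. Srsf9 ran against Srsf11 (-0.809) and against Srsf5 (-0.791). Of 10789 other genes with a mean of 5 TPM or more, the closest to the mean profile of the 10 members were Dock5 (0.954), Gm21092 (0.951), Aph1b (0.95), Zfp91 (0.95) and Atp11b (0.948). GC content was taken from the longest annotated transcript of a gene, which need not be the one expressed. It was 40.2% to 41.6% for Srsf1, Srsf3, Srsf5, Srsf7 and Srsf10. These genes, Srsf6 (42.8%) and Srsf11 (45.0%) lay lower than most tested genes, and Srsf4 was at 53.0%.

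The genes that act with the SR factors were counted on 4 lists. Those named below had the largest called differences of their list between the lines at the MCE or differentiation stage. Whether their calls hold with a compared library left out was not tested. Of the other SR and SR-like genes 12 of 13 were tested, Srsf12 being near 0. In preadipocytes 9 of them were lower and 0 higher in shFto (median -0.64), 0 passed at the MCE stage (median -0.27) and 2 were lower at the differentiation stage (median -0.05). Of all genes 12.3% were lower and 15.9% higher in preadipocytes, and 9.31% were lower at the differentiation stage. Along differentiation 0 rose and 7 fell into the MCE stage in shScram and 0 rose and 3 fell in shFto, after which 6 and 8 rose and 0 fell. Of all genes 26.9% and 19.9% fell into the MCE stage in shScram and shFto, and 20.0% and 20.2% rose after it. Without replicate 1 of shScram preadipocytes 8, 6 and 2 were lower in shFto at the successive stages, and 0, 0 and 1 were higher, beside 12.9%, 15.8% and 20.4% of all genes lower and 16.1%, 25.2% and 25.3% higher. At the differentiation stage, Tra2a, an SR-like enhancer protein, fell from 148 and 164 TPM to 93.3 and 101 TPM (log2 fold change -0.68, adjusted p = 0.0318), and Son, a scaffold of nuclear speckles, from 276 and 288 TPM to 176 and 194 TPM (-0.61, adjusted p = 0.0341).

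Of the kinases and transport factors 8 of 9 were tested. In preadipocytes 1 was higher and 6 were lower in shFto, beside 15.9% and 12.3% of all genes. These counts include replicate 1 of shScram preadipocytes. The list summed to 728 and 505 TPM in replicates 1 and 2 of that group, and to 395 and 404 TPM in shFto preadipocytes. At the MCE stage 1 was higher, beside 10.5%, and at the differentiation stage 1 was lower, beside 9.31%. Clk3, a nuclear kinase of SR proteins, rose at the MCE stage from 27.8 and 26.1 TPM to 43.0 and 42.1 TPM (0.64, standard error 0.10, adjusted p = 0.00339). Tnpo3 fell at the differentiation stage from 76.9 and 74.0 TPM to 54.4 and 55.2 TPM (-0.45, adjusted p = 0.0302). In shScram 6 of the 8 fell into the MCE stage and 5 rose after it, beside 26.9% and 20.0% of all genes. In shFto 3 fell and 5 rose, beside 19.9% and 20.2%. After median-ratio scaling 3 fell and 1 rose in shScram, and 1 fell and 4 rose in shFto. The shares of all genes with that scaling are given above with the changes between stages.

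The hnRNP proteins and PTB, which often oppose SR proteins at exons, had 20 tested genes. In preadipocytes 9 were lower and 0 higher in shFto, beside 12.3% and 15.9% of all genes. These counts include replicate 1 of shScram preadipocytes. The list summed to 7192 and 6505 TPM in replicates 1 and 2 of that group, and to 4848 and 5394 TPM in shFto preadipocytes. At the MCE stage 1 was higher and 2 were lower, beside 10.5% and 7.26%. At the differentiation stage 1 was higher and 1 lower, beside 11.9% and 9.31%. Hnrnpd, which binds AU-rich elements, rose at the differentiation stage from 80.9 and 73.8 TPM to 116 and 124 TPM (0.63, adjusted p = 0.0119), and Hnrnpll fell at the MCE stage from 97.2 and 87.0 TPM to 62.0 and 64.4 TPM (-0.53, adjusted p = 0.0132). Of the 13 genes for splice site recognition 1 was higher and 1 lower in preadipocytes, 0 passed at the MCE stage and 1 was lower at the differentiation stage, Sf3b3 of the U2 snRNP, from 162 and 156 TPM to 125 and 127 TPM (-0.33, adjusted p = 0.0394). Without replicate 1 of shScram preadipocytes, 4 of these 13 genes were higher during clonal expansion and 5 after differentiation, beside 25.2% and 25.3% of all genes.

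Runx1t1, the exon target tied to SRSF2, fell into the MCE stage and rose after it in both lines. It was at 22.9 and 15.7, then 3.78 and 2.85, then 13.9 and 14.4 TPM in shScram, and in shFto at 8.38 and 10.8, then 2.76 and 3.06, then 10.1 and 10.2 TPM. The knockdown effect was -0.92 in preadipocytes (adjusted p = 0.0139), -0.13 at the MCE stage (adjusted p = 0.732) and -0.44 at the differentiation stage (adjusted p = 0.167). The size of the preadipocyte effect depends on replicate 1 of shScram, the higher control at 22.9 TPM. Replicate 2, at 15.7 TPM, lay closer to the shFto libraries. Ythdc1, a nuclear m6A reader tied to SR proteins, was at 66.6 and 43.2, then 41.0 and 37.1, then 42.0 and 46.9 TPM in shScram. In shFto it was at 34.9 and 40.3, then 43.5 and 46.1, then 34.9 and 37.4 TPM. Its knockdown effect did not pass at any stage, with adjusted p-values of 0.0746, 0.56 and 0.328. Without replicate 1 of shScram preadipocytes, the effects at the differentiation stage passed for both, at -0.44 for Runx1t1 (adjusted p = 0.0376) and -0.29 for Ythdc1 (adjusted p = 0.0326).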

How the data were processed

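RNA-seq of 3T3-L1 cells with shScram or shFto was analysed at 3 stages, with 2 libraries in each of 6 groups, assigned by their titles. The deposited TPM of each gene came from StringTie 2.1.4, which the authors ran with Ensembl annotation on reads trimmed by Trim Galore 0.6.5 and placed on GRCm38 by HISAT2 2.1.0. Their own DESeq2 1.30.1 test used counts, which were not used here. TPM keeps no depth, so depth and counting error are unknown.

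From the deposited TPM, log2(TPM + 1) was computed for 55487 genes, and 15968 genes that reached 1 TPM in 2 or more libraries entered the fit by limma 3.58.1 under R 4.3.3 (a mean per group over all 12 libraries, 6 residual degrees of freedom, eBayes with a trend). Tests were two-sided, p-values were adjusted by Benjamini-Hochberg over all genes tested and the threshold was 0.05. A fold change on this scale understates that of low genes. Effects of shFto were compared between stages as interaction contrasts. Alternatives were a pseudocount of 0.1, no filter, a mean of 5 TPM or more, median-ratio scaling, quantile normalization, only the libraries of the contrast, eBayes without a trend, the replicate number as a block and each library left out. Removal of a loess trend on GC content was added after seeing the data. Sums, correlations and motif searches were made in Python 3.11.15 (pandas 2.3.3, numpy 2.4.6). Gene positions are from GENCODE M21, in which 55227 gene IDs were found.

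The members and gene lists were chosen with earlier results of these data known. Named are all 10 members, Fto, Runx1t1 and Ythdc1, from each of 4 pathway lists up to 2 genes with the largest difference among those called between the lines at the MCE or differentiation stage, and the 5 genes closest to the mean profile of the members. The rhein and immunoprecipitation libraries of the study were not analysed here.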

Additional observations from a re-analysis of the deposited data

Results flagged for a closer look

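The effect of the knockdown on Srsf7 differed between the MCE and the differentiation stage, by an interaction contrast in limma over all genes. shFto cells held 167 and 158 TPM at the MCE stage against 120.0 and 111 TPM in shScram, and 84.5 and 85.4 TPM at the differentiation stage against 108 and 109.9 TPM. Both shFto libraries were thus higher than both shScram libraries at the first stage and lower at the second, a change of -0.84 on the log2 scale (adjusted p = 0.0288). The call was lost without any of the 8 libraries of these stages (adjusted p up to 0.158) and with the replicate block (adjusted p = 0.062). The markers of dividing cells also changed between these groups, and their part in this difference was not tested.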

How the results depend on the processing

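Among fold changes under the alternatives that keep all libraries or only those compared, 686 kept direction and side of the threshold, 58 newly passed, 46 no longer passed and 20 changed sign. With 1 library left out the numbers were 885, 61, 113 and 21. The cause was not tested.

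When a contrast was fitted on its own libraries, the members called numbered 0, 5 and 8 for the knockdown in preadipocytes, at the MCE and at the differentiation stage, 0 and 4 for the 2 steps in shScram, 9 for the second step in shFto and 0 and 7 for the differences between stages. Of all genes 0.00%, 37.0%, 41.4%, 3.16%, 40.4%, 54.4%, 1.5% and 16.9% passed in these fits. Quantile normalization gave 4 for the knockdown at the differentiation stage, 1 for the second step in shScram and 1 for the first difference between stages. Median-ratio scaling gave 4 and 1 for the last 2 of these, and removal of the GC trend 5 and 1, with 3 for the second difference between stages. Without the low filter 3 were called in preadipocytes, and eBayes without a trend called 1 at the differentiation stage. Where the share of all genes in the same fit is not beside them, here and in the paragraphs below, the counts describe the processing. They are not results about the members.

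The replicate numbers did not pair the libraries: deviations of the same number correlated at -0.29 to 0.172 over 15 pairs of groups, 2 of them above 0.1. With the replicate block 3 members were called in preadipocytes, 1 at the differentiation stage and 0 for the second difference between stages (Srsf7 at an adjusted p of 0.062), where 5 had an unadjusted p under 0.05 without the block.

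With 1 library left out the counts were 0 to 8, 0 to 5 and 0 to 8 for the knockdown at the 3 stages, 2 to 7 and 1 to 6 for the steps in shScram, 2 to 6 and 4 to 9 in shFto, and 0 to 7 and 0 to 6 for the differences between stages. Both libraries of shScram preadipocytes raised the calls in most comparisons when left out. As the share of all genes called also moved between these fits, the ranges are not results about the members.

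With median-ratio scaling the difference of Srsf2 was -0.052 at the MCE stage, 0.12 into it and -0.13 after it in shScram, that of Srsf10 after it was -0.015, and that of Srsf4 after it in shFto was -0.00066. With quantile normalization Srsf2 was at -0.074 at the MCE stage and Srsf5 at -0.062 at the differentiation stage. With the GC trend removed the knockdown values in preadipocytes were 0.015 for Srsf1, 0.038 for Srsf3, 0.25 for Srsf6 and 0.24 for Srsf7, and Srsf2 at the MCE stage was -0.017. In that setting the first step in shScram was 0.068 for Srsf1, 0.026 for Srsf2, -0.036 for Srsf4 and 0.076 for Srsf6, the second was -0.071 for Srsf2 and -0.082 for Srsf10, Srsf4 after the MCE stage in shFto was -0.019, and the first difference between stages of Srsf5 was -0.34.

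With 1 library left out, the knockdown value of Srsf6 in preadipocytes ranged from -0.12 to 0.062, at the MCE stage that of Srsf1 from -0.0070 to 0.29 and of Srsf2 from -0.056 to 0.086, and at the differentiation stage that of Srsf5 from -0.034 to 0.080. The first step in shScram ranged from -0.32 to 0.11 for Srsf2, -0.018 to 0.24 for Srsf3 and -0.088 to 0.11 for Srsf4, and the second from -0.18 to 0.0024 for Srsf4. In shFto the first step ranged from -0.14 to 0.16 for Srsf1 and -0.086 to 0.097 for Srsf6. The first difference between stages ranged from -0.087 to 0.11 for Srsf4 and -0.19 to 0.27 for Srsf5, and the second from -0.12 to 0.0031 for Srsf11. Depth is unknown, so its limits cannot be given.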
